A study of Mus musculus with 3 samples.

Results

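The E protein genes Tcf3, Tcf4 and Tcf12 and the Id inhibitor genes Id1, Id2 and Id3 were followed across 3 mouse cell populations, namely embryonic stem (ES) cells, B cells of the spleen and CD4 T cells of the spleen. The members were every probe set of the deposited table annotated to 1 of these 6 gene symbols alone, which gave 19 probe sets of 45037, with 14 for the E protein genes and 5 for the Id genes. All 3 populations were of the C57BL/6 strain, and none was described as carrying a transgene or a deletion. The B6N-22 line of ES cells grew with leukemia inhibitory factor (LIF) and serum on fibroblasts that mitomycin C had made unable to divide. The B cells were selected for B220 and the T cells for CD4 with magnetic beads, from mice aged 6 to 8 weeks, to a stated purity above 98%. RNA was isolated directly after harvest and hybridised to 1 array per population, so no value below has a replicate error and no test was possible. The number of animals behind a lymphocyte array, and whether feeder cells were removed from the ES cells, were not given in the sources used here.

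E proteins are basic helix-loop-helix transcription factors that bind DNA as dimers at the E-box, a short sequence with the letters CANNTG. Id proteins carry the helix-loop-helix part but lack the basic region that touches DNA, so a dimer of an Id protein and an E protein does not bind. In lymphocytes the E proteins are required for early B and T cell development, Id2 is known for its part in innate lymphoid and effector T cells, and Id3 is induced by antigen receptor signalling. In ES cells, Id genes are known targets of bone morphogenetic protein (BMP) signals.

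Signals are the authors' probe set intensities on a linear scale, and each was compared between arrays for the same probe set and never with another probe set. The detection level was set at a signal of 95.0, the 50th percentile of all values. Lower values were set to that level ahead of the log2, so a fold against such an array is written "at least". A gene was represented by its brightest probe set, counted as measured where 1 of the 2 arrays exceeded the detection level, and counted as different at 4-fold or more. All 6 genes were measured in every comparison, all 19 probe sets exceeded the level in at least 1 array and 14 did so in all 3. Between the 2 brightest probe sets of the same gene, the median disagreement over all genes with both above the level was 0.28 on the log2 scale for T cells against B cells, 0.46 for T cells against ES cells and 0.41 for B cells against ES cells.

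The arrays carried the defining genes of their labels. All 8 ES cell markers exceeded either lymphocyte array at least 4-fold in ES cells. Of the T cell markers all 8 were at least 4-fold higher in T than in B cells, and of the B cell markers all 7 were lower by as much. For the 6 B cell markers above the detection level in both lymphocyte arrays, the T cell array held between 2.10% and 6.69% of the B cell array's signal, and for Pax5, below that level in T cells, at most 16.3%. For the 6 T cell markers above it in both, the B cell array held between 1.01% and 2.12% of the T cell array's signal. Cd3e and Cd4 were below the level in B cells, which allows up to 2.85% and 11.4%. The ES cell array also carried all 10 fibroblast markers, with a summed signal of 84844 against 759 (B cells) and 562 (T cells). The 10 macrophage markers summed to 4267 in ES cells, 27403 in the B cell array and 66159 in the T cell array. In such bulk RNA, fewer cells of a type and less RNA per cell cannot be told apart. The part of fibroblasts was not tested for any ES cell value below, nor for the differences from ES cells.

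Tcf4, which encodes the E protein E2-2, was the E protein gene that differed most between the arrays. Its brightest probe set had signals of 1139 in ES cells, 5797 in the B cell array and 1045 in the T cell array. B cells were thus 5.55-fold above T cells and 5.09-fold above ES cells, while T cells and ES cells were within 1.09-fold. The other 5 probe sets of Tcf4 also had their highest value in B cells. The next brightest read 537, 3044 and 589 in ES cells, B cells and T cells. A further one read 688, 2534 and 445, and the probe set with the suffix that Affymetrix gives to possible cross-hybridisation read 629, 2395 and 512. The last pair read 203, 1531 and 378, and 82.9, 144 and 44.2, the latter with only B cells above the detection level. Of the 6 probe sets, 5 were at least 4-fold lower in T than in B cells, and the sixth differed by at least 1.51-fold. Against ES cells, 3 reached 4-fold in B cells, and the brightest gave 2.00 on the log2 scale, just short of 4-fold, when the arrays were scaled to a common 75th percentile. Between T cells and ES cells the measured probe sets of Tcf4 pointed both ways, 2 higher and 3 lower in T cells.

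Tcf3, which encodes E2A, the E protein at the start of B cell commitment, was also highest in B cells. The brightest probe set had signals of 1236 in ES cells, 2390 in the B cell array and 1077 in the T cell array, a value 2.22-fold lower in T than in B cells and 1.93-fold higher in B than in ES cells. The second probe set read 328, 1075 and 323, a larger contrast of 3.33-fold between T cells and B cells. The dimmest read 120, 246 and 64.4, with T cells below the detection level. It carries the suffix for possible cross-hybridisation and is annotated to the same sequence record as the second. All 3 probe sets had their highest value in B cells and their lowest in T cells, and none was counted at 4-fold in any comparison. T cells were 1.15-fold and 1.02-fold below ES cells by the brighter pair of probe sets and at least 1.26-fold below them by the dimmest.

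Tcf12, which encodes HEB, an E protein with a known role in thymocytes, had its lowest value in ES cells and similar values in the lymphocytes. The brightest probe set had signals of 2471 in ES cells, 3493 in the B cell array and 4856 in the T cell array. T cells were 1.97-fold and B cells 1.41-fold above ES cells, and the step from B cells to T cells was 1.39-fold. All 5 probe sets were lowest in ES cells, 3 were highest in T cells and 2 in B cells. The probe set with the greatest contrast read 237, 961 and 1088, which is 4.60-fold higher in T cells and 4.06-fold higher in B than in ES cells. The remaining 3 read 684, 1035 and 1095, then 92.8, 166 and 149, and last 66.3, 201 and 198. Between T cells and B cells the probe sets lay between -0.15 and 0.48 on the log2 scale, so neither array stood above the other beyond the disagreement of the probe sets. With the median over probe sets in place of the brightest, Tcf12 was past 4-fold in both comparisons with ES cells, at 2.20 and 2.02 on the log2 scale.

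**Figure D1:**
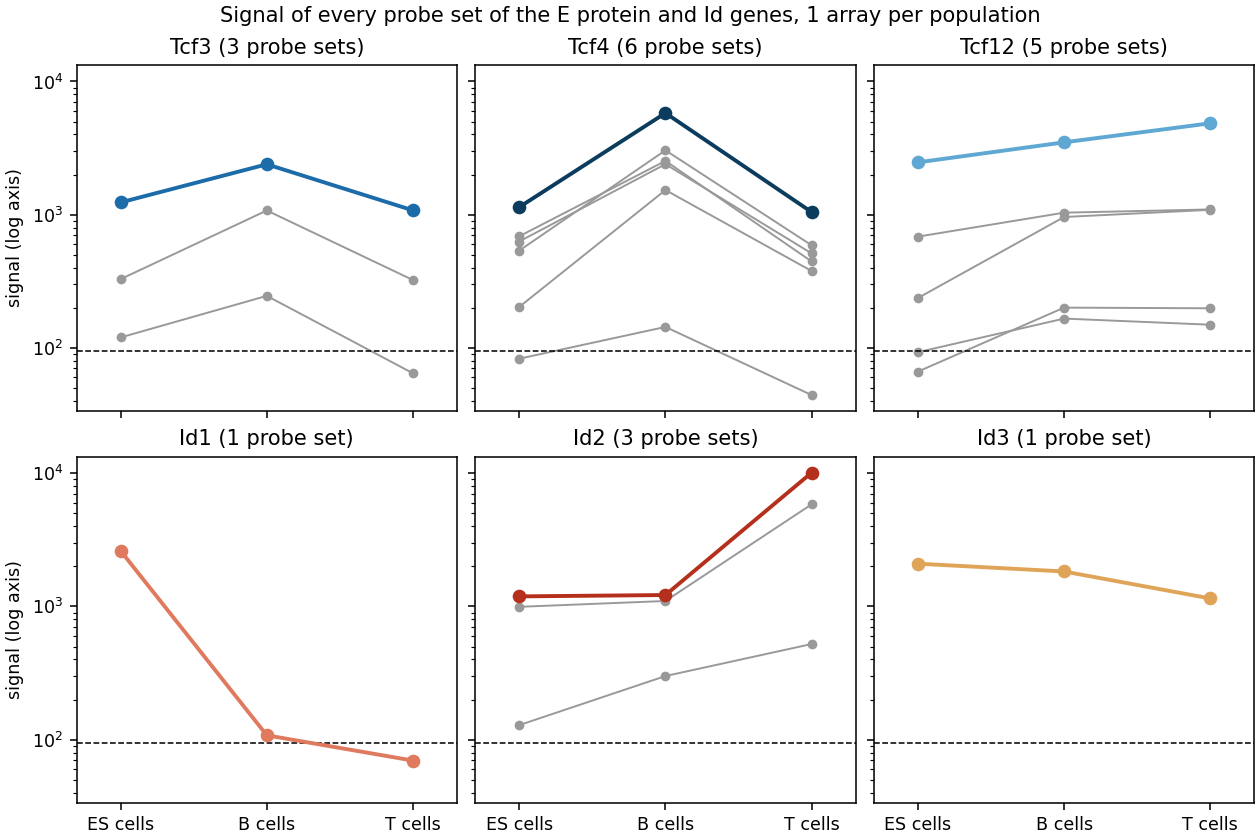
Signal on a log axis of each probe set of the 6 genes in ES cells, B cells and T cells (1 array each); the coloured line is the brightest probe set, grey lines are the others and the dashed line is the detection level of 95.0. Tcf3 and Tcf4 peak in B cells in every probe set, Id2 peaks in T cells in every probe set, Id1 is high in ES cells, and Tcf12 and Id3 stay within 2-fold by their brightest probe sets.

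Id2, unlike Id1 and Id3, had its highest signal in the T cell array. Its brightest probe set had signals of 1190 in ES cells, 1218 in the B cell array and 10108 in the T cell array, so that T cells were 8.49-fold above ES cells and 8.30-fold above B cells, and B cells and ES cells were within 1.02-fold. The second probe set read 993, 1099 and 5846. The third, far dimmer, read 129, 300.2 and 522, with T cells 4.06-fold above ES cells and 1.74-fold above B cells. All 3 probe sets were highest in T cells and lowest in ES cells, and 2 of 3 reached 4-fold in T against B cells. The B cell value stood at 12.1% of the T cell value, beside 1.01% to 2.12% for the 6 T cell markers above the detection level in both arrays and bounds of 2.85% and 11.4% for Cd3e and Cd4.

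Id2 is also expressed by macrophages, dendritic cells and natural killer (NK) cells, whose markers were not level between the lymphocyte arrays. All 10 macrophage markers were higher in T than in B cells, by 1.07 to 1.73 on the log2 scale, and 0 of 10 reached 4-fold. The conventional dendritic cell markers were higher in 6 of 6 measured, by 0.33 to 1.85. Of 9 NK and innate lymphoid markers 6 were higher in T cells. The range was from -1.64 for Gzma to at least 3.58 for Il2rb, which was below the detection level in B cells. Klrd1 was at 2.00 and Nkg7 at 1.67, with signals of 2355 and 1272 in T cells. The lower ones were Gzma, Klre1 and Ncr1. Ncr1, the NK cell receptor gene, was below the detection level in T cells with a signal of 51.9. The difference of Id2 by its brightest probe set, 3.05, was larger than that of any macrophage or conventional dendritic cell marker listed, and that of its dimmest, 0.80, was not. The part of these cells in the Id2 signal was not tested.

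Id1 was high in ES cells and near or below the detection level in the lymphocytes. Its only probe set had signals of 2617 in ES cells, 108 in the B cell array and 69.6 in the T cell array. Against ES cells it was 24.3-fold lower in B cells, and for T cells it was lower by at least 27.5-fold, and no difference between the lymphocytes could be read at that level. With a detection level at the 65th percentile, a signal of 244.5, both differences became bounds of -3.42 on the log2 scale. Feeder fibroblasts, in which Id1 can also be expressed, were visible in the ES cell array by all 10 fibroblast markers, among them Col1a2 at 15844, and their part in the Id1 signal was not tested.

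Id3, like Id2, was above the detection level in all 3 arrays, but its values lay closer together. Its only probe set had signals of 2095 in ES cells, 1830 in the B cell array and 1148 in the T cell array. T cells were 1.82-fold below ES cells and 1.59-fold below B cells, and B cells and ES cells were within 1.14-fold. No second probe set was there to show the error of these values. Id4, the remaining gene of the family and not a member here, had a signal of 594 in ES cells, 22.5 in the B cell array and 0.3 in the T cell array by its brightest probe set, which is at least 6.25-fold lower in both lymphocytes.

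Id2 and Id3 parted in T cells, where Id2 had its highest signal and Id3 its lowest. The 250 bases before their annotated starts are shown as the sequence next to these 2 genes, with matches to the motifs searched in capitals. The part of these stretches in the expression of either gene was not tested. The Id2 stretch is chr12:25096093-25096342 on the minus strand and the Id3 stretch chr4:136143572-136143821 on the plus strand, both from RefSeq on GRCm38.p6, and each ends where its gene begins.
Id2: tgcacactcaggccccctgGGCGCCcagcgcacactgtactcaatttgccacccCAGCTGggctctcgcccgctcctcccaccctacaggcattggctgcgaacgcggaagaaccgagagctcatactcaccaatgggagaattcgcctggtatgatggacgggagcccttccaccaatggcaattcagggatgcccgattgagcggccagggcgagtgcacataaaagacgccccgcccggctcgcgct
Id3: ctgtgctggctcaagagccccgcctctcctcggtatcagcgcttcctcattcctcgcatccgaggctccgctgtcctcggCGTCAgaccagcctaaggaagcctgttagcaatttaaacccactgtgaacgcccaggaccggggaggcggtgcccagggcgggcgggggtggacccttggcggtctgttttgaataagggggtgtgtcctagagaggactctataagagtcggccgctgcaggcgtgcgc
On both strands the search covered the E-box CANNTG, its forms CAGCTG and CACCTG that E proteins are known to prefer, which are subsets of it, an EGR motif GCGNGGGCG, the CRE core TGACG and the palindrome GGCGCC known from SMAD binding. The Id2 stretch held 1 E-box, CAGCTG, whose first base lies at position -196 from the start, and 1 GGCGCC at -231. The Id3 stretch held no E-box of these letters, and its 1 match was the CRE core on the minus strand, printed as CGTCA at -170. Among 32851 stretches of the same length before annotated mouse starts, 66.2% held CANNTG, 13.0% CAGCTG, 17.2% CACCTG, 4.70% the EGR motif, 17.8% TGACG and 9.59% GGCGCC. Each stretch had a GC content of 62.8%. A match describes letters and is no evidence of binding.

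The comparison of T cells with B cells asks how the balance of E protein and Id transcripts differs between the lymphocyte lineages. Id2 was higher in T cells, Tcf4 and Tcf3 were lower, and Tcf12 and Id3 were within 2-fold, while Id1, below the detection level in T cells, gave only a bound. Of the 6 genes, 1 (Id2) was higher in T cells by 4-fold or more, where 2.49% of 11194 measured genes were, and 1 (Tcf4) was at least 4-fold lower, where 1.85% were. At 2-fold, Tcf3 joined Tcf4 among the lower genes, against 6.32% of all genes. Id2 had the 103rd highest difference of 11194 genes and Tcf4 the 137th lowest. The median difference of the 6 genes was -0.43 on the log2 scale against -0.05 for all genes, and their median absolute difference was 0.91 against 0.34, both with Id1 at its bound. When every probe set of a gene had to pass 4-fold, neither Id2 nor Tcf4 was counted, because the dimmest probe set of each fell short, for Tcf4 as a bound.

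Between T cells and ES cells, the 6 genes had a median absolute difference of 0.92 on the log2 scale, against 0.93 for all genes. Id2 was at least 4-fold higher and Id1 at least 4-fold lower. The 1 higher gene of 6 stands beside 10.8% of 12325 measured genes and the 1 lower gene beside 10.2%, so neither count sets these genes apart. Id3 and all 3 E protein genes were within 2-fold by their brightest probe sets, and Tcf12 passed 4-fold by the median over its probe sets. The B cell array differed from ES cells in 1 gene of each kind: Tcf4 was at least 4-fold higher, beside 9.85% of 12463 genes, and Id1 at least 4-fold lower, beside 10.3%. The shares of members are those of single genes, and both comparisons use the same ES cell array. With scaling to the 75th percentile the median of all genes moved from -0.11 to -0.42 for T cells and from -0.07 to -0.37 for B cells against ES cells. Under that scaling Id2 was 2.71 on the log2 scale above ES cells in T cells, and Id1 was at -4.95 in B cells and at a bound of -5.00 in T cells, while Tcf4 in B cells fell just short of 4-fold at 2.00. Id2 in B cells against ES cells changed sign, from 0.03 to -0.31, so no direction can be given for it.

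**Figure D2:**
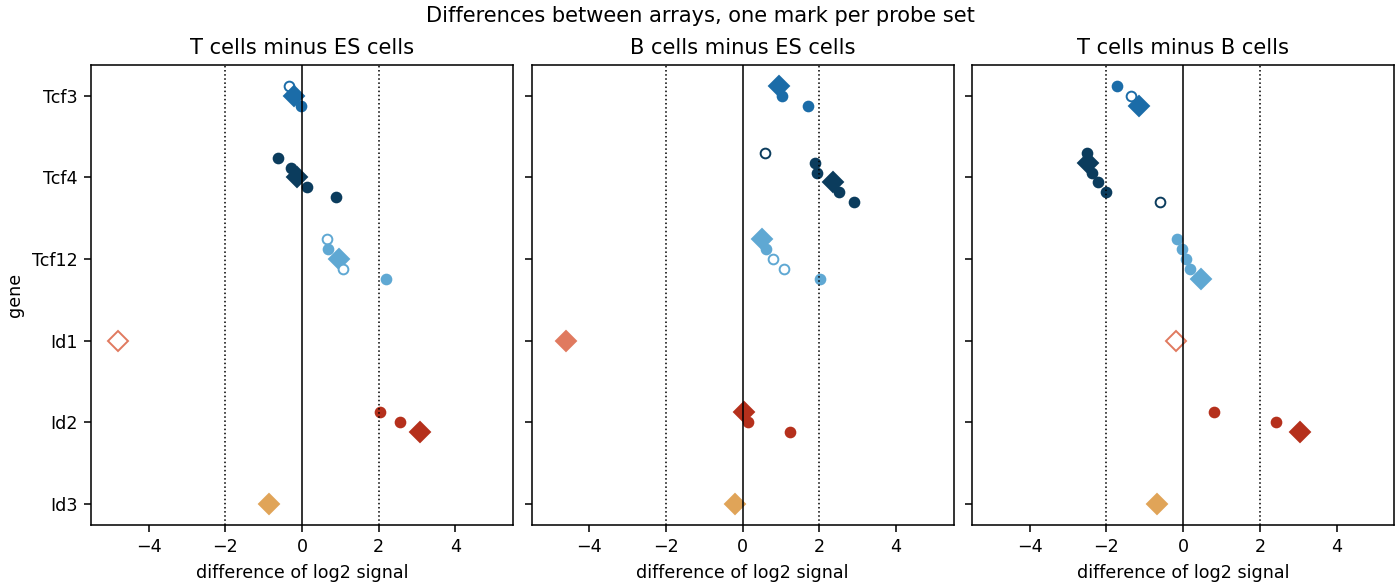
Difference of log2 signal between arrays for each probe set of the 6 genes, in 3 panels; diamonds are the brightest probe sets, circles the others, open marks are bounds with 1 array at or below the detection level, and dotted lines mark 4-fold. In T cells minus B cells, 5 of 6 Tcf4 probe sets lie left of the 4-fold line and 2 of 3 Id2 probe sets lie right of it.

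**Figure D3:**
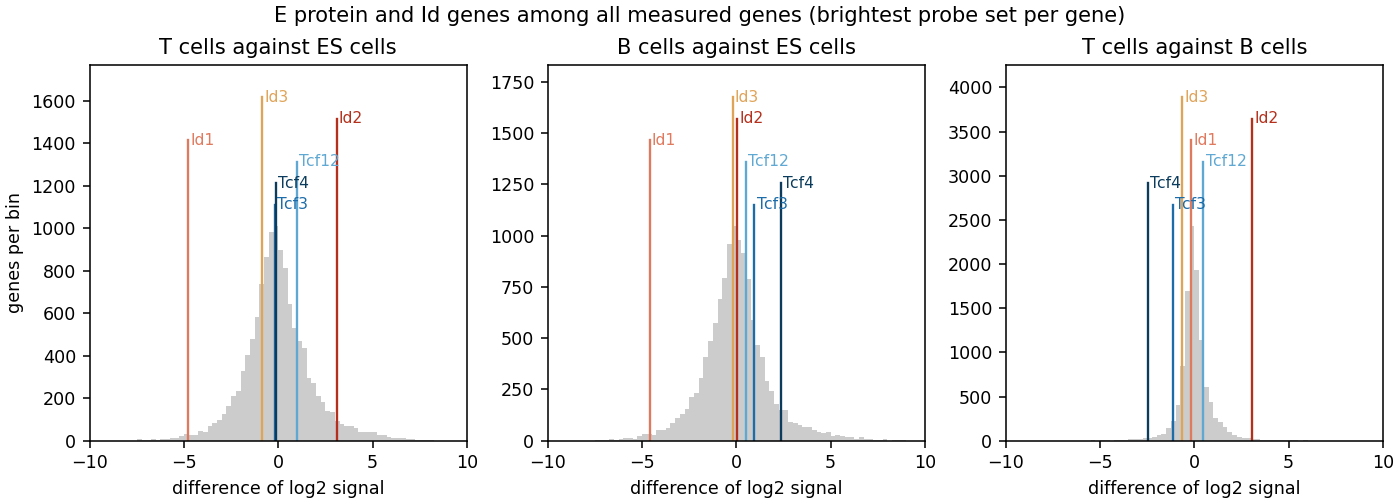
Number of genes per bin of log2 difference (grey bars, all measured genes by brightest probe set) with the 6 genes as coloured lines, for the 3 comparisons. Id2 and Tcf4 lie in opposite tails of T cells against B cells, at 3.05 and -2.47, and Id1 lies in the lower tail of both comparisons with ES cells.

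The change of an E protein gene minus the change of an Id gene compares 2 differences between the same arrays, so that a factor common to an array cancels where all signals are above the detection level. It does not compare levels, and each gene was taken by its brightest probe set. Between T cells and B cells this value was negative for 5 of the 6 pairs with Id2 or Id3. It was lowest for Tcf4 against Id2, at -5.52 on the log2 scale, a 46.0-fold shift of the ratio of their signals. The size depends on the probe set, as the dimmest ones differed less, by -0.60 for Tcf4, a bound, and 0.80 for Id2. Tcf3 against Id2 stood at -4.20 and Tcf12 against Id2 at -2.58, so all 3 pairs with Id2 were negative. The 1 positive pair among the 6 was Tcf12 with Id3, at 1.15. Id1 was below the detection level in T cells, so its pairs gave lower bounds. These were -2.29 for Tcf4, -0.97 for Tcf3 and 0.66 for Tcf12. The bound for Tcf12 rests on its brightest probe set, where another gave -0.15 between T cells and B cells. The Id1 signal in B cells was also near the detection level, so no sign is given for these pairs. Between B cells and ES cells all 9 pairs were positive, from 0.47 for Tcf12 with Id2 to 6.95 for Tcf4 with Id1. The dimmest Id2 probe set gave 1.22 there, above Tcf3 at 0.95 and Tcf12 at 0.50 by their brightest probe sets. The sign of those pairs with Id2 thus depends on the probe set. Between T cells and ES cells the sign followed the Id gene. The 3 pairs with Id2 lay between -3.29 and -2.11, the 3 with Id1 had lower bounds between 4.58 and 5.76, and the 3 with Id3 between 0.67 and 1.84. The 9 pairs share 6 genes and the comparisons share arrays, so they are not independent values.

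**Figure D4:**
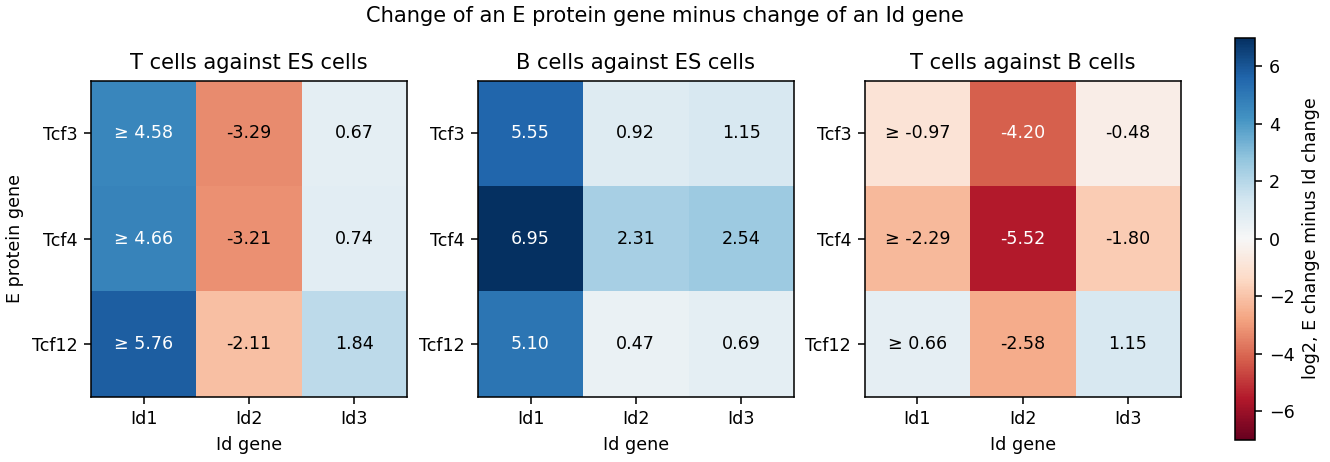
Log2 change of each E protein gene (rows) minus log2 change of each Id gene (columns) for the 3 comparisons, with the value in each cell; blue is positive, red negative and ≥ marks a lower bound, Id1 being below the detection level in T cells. By the brightest probe sets, the Id2 column is negative for T cells against both other arrays, and the B cell panel against ES cells is positive throughout.

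Tcf4 is also a defining factor of plasmacytoid dendritic cells, and markers of those cells were therefore set beside it. Siglech, a receptor gene of plasmacytoid dendritic cells, had signals of 67.1 in ES cells, 337 in the B cell array and 834 in the T cell array. Bst2 read 1172, 888 and 1867, and both were higher in T than in B cells. Of 11 measured markers 8 were higher in T than in B cells, and the list's median was 0.56 on the log2 scale. The highest were Ccr9 at 3.27 and Klk1 at 2.73, the latter with another probe set at -0.69. The 3 lower ones were Ly6d at -4.35, Spib at -3.87 and Irf8 at -1.96. The part of plasmacytoid dendritic cells in the Tcf4 signal was not tested. The T cell array's Tcf4 signal was 18.0% of that in B cells, and its Tcf3 signal 45.1%, while its B cell markers stood at a median of 3.46% of the B cell array, with Pax5, below the detection level in T cells, as the highest.

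**Figure D5:**
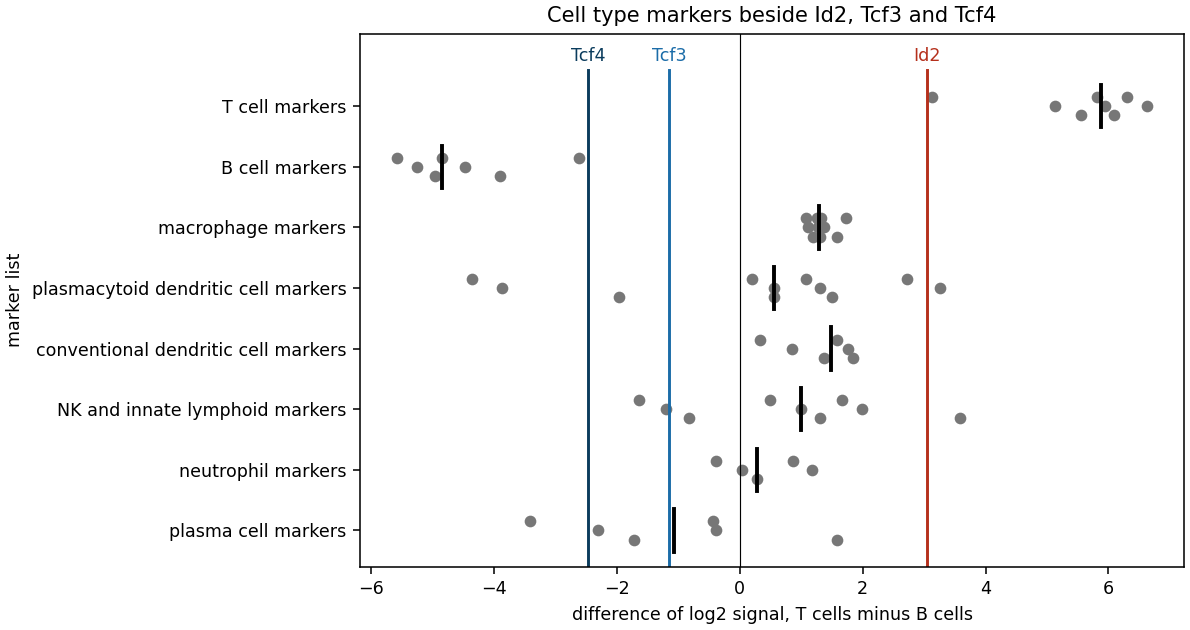
Difference of log2 signal between T cells and B cells for the measured genes of 8 marker lists (grey points, black bar the list median), with vertical lines at the differences of Tcf4, Tcf3 and Id2. The macrophage markers cluster between 1.07 and 1.73, to the left of Id2 at 3.05, and the B cell markers lie to the left of Tcf4 at -2.47.

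The tissue-restricted helix-loop-helix genes that pair with E proteins were mostly at background in lymphocytes. Of 23 genes with a probe set, 5 were measured between T cells and B cells, with 0 at least 4-fold higher and 1 at least 4-fold lower in T cells and a median of -0.28 on the log2 scale, beside 2.49% higher and 1.85% lower over all genes. That gene was Lyl1, a partner of E proteins in blood cells, with signals of 105 in ES cells, 3545 in the B cell array and 235 in the T cell array, 15.1-fold lower in T cells. Its relative Tal1 was below the detection level in all 3 arrays, the highest signal being 62.8 in B cells. Against ES cells, 4 of 11 measured genes lay at least 4-fold lower in each lymphocyte array, beside 10.2% (T cells) and 10.3% (B cells) of all genes. Lyl1 was 33.9-fold higher in B than in ES cells, where its signal was near the detection level. Tcf15, a gene of paraxial mesoderm, had a signal of 1800 in ES cells and was at least 18.9-fold lower in B cells and 18.8-fold lower in T cells. Twist2 and Msc had signals of 749 and 721 in ES cells and at most 77.0 in the lymphocytes. The fibroblast markers were high in the same ES cell array, and their part was not tested.

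Among cofactors and regulators of stability, the bridging genes of E protein complexes stood out by Lmo2. Lmo2, a LIM-only adaptor that joins E protein dimers to other factors, had signals of 99.5 in ES cells, 7428 in the B cell array and 644 in the T cell array. It was 74.6-fold higher in B than in ES cells, where its signal was near the detection level, and 11.5-fold lower in T than in B cells. Ldb1, which binds LIM-only proteins, was within 1.31-fold between T cells and B cells, with signals of 781, 1571 and 2050. Of 13 measured genes of this list, Lmo2 alone was at least 4-fold different between the lymphocytes, beside 1.85% of all genes lower by as much and 2.49% higher, and the list median was 0.02 on the log2 scale. Cbfa2t3, a corepressor that E proteins bind, exceeded its ES cell value by at least 11.3-fold in B cells and 5.98-fold in T cells, with signals of 10.6, 1072 and 568. The lowest values over its probe sets were 1.15 in B cells and 1.21 in T cells on the log2 scale, short of 4-fold. Skp2, a ubiquitin ligase subunit, was 7.92-fold lower in B cells and 5.18-fold lower in T than in ES cells, although another of its probe sets gave -0.10 and 0.02 on the log2 scale.

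Most listed E protein targets of the B lineage were higher in B cells. Of 11 measured genes 8 lay at least 4-fold lower in T than in B cells, beside 1.85% of all genes, and 0 were counted as 4-fold higher. The median was -3.48 on the log2 scale against -0.05 for all genes. Dntt, the terminal transferase gene, was the 1 listed gene higher in T cells, by at least 3.93-fold, with a signal of 374 there and 44.4, below the detection level, in B cells. Ebf1, a B lineage factor gene activated by E2A, had signals of 94.6 in ES cells, 5291 in the B cell array and 138 in the T cell array, 38.3-fold lower in T cells by the brightest probe set, with the others up to -0.41 on the log2 scale. Pax5 was at least 6.15-fold lower and Pou2af1 11.2-fold lower. Foxo1 had nearly equal signals of 3672 in B cells and 3665 in T cells, and was 6.17-fold and 6.16-fold above ES cells. Rag1, Rag2 and Vpreb1, targets of early lymphoid progenitors, were below the detection level in both lymphocyte arrays, with Rag1 at 19.2 in B cells and 0.9 in T cells.

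Of 13 measured targets listed for the T lineage, 7 were at least 4-fold higher in T than in B cells, beside 2.49% of all genes, and 2 were at least 4-fold lower, beside 1.85%. In all 9 of the 13 were higher, and the median was 2.04 on the log2 scale. Bcl11b, the T cell commitment factor gene, was 98.6-fold higher and Il7r 54.8-fold higher. Gata3 was at least 13.2-fold higher, and Cd4, the gene of the coreceptor used for the sort, at least 8.78-fold higher. The 2 genes past 4-fold in the other direction were the chemokine receptor gene Cxcr5, 6.40-fold lower, and Hes1, 8.21-fold lower with signals of 668 in ES cells, 1234 in the B cell array and 150.4 in the T cell array. Ikzf3, a lymphoid zinc finger factor gene, was 3.46-fold lower, and Cdk6 was at -0.20 on the log2 scale. Dntt, Hes1 and Cdk6 were named after their values had been seen. Ptcra, the pre-T cell receptor gene, was below the detection level in all 3 arrays, with 23.8 in T cells. Cdkn1a, a cell cycle inhibitor gene that E proteins can activate, was at least 28.8-fold lower in B cells and 14.7-fold lower in T than in ES cells. Fibroblast markers were high in that ES cell array, and the part of feeder cells in the Cdkn1a signal was not tested. Rag1 and Rag2 are in both target lists, several of these genes also serve above as lineage markers, and whether E proteins set these differences was not tested.

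Genes that act upstream of the Id genes were described last. Of the BMP and SMAD list, 3 of 14 measured genes lay at least 4-fold lower in T than in ES cells, beside 10.2% of all genes. In B cells 4 of 13 did, beside 10.3%, and 0 were counted as 4-fold higher by the brightest probe sets. Smad7, named after its values had been seen, was at 0.06 on the log2 scale for T cells against ES cells but at 3.15 by another probe set. Bmp4, a ligand that induces Id genes in ES cells, had a signal of 2437 in ES cells, 19.5 in the B cell array and 25.8 in the T cell array. The 10 fibroblast markers, with their summed signal of 84844 in ES cells against 759 (B cells) and 562 (T cells), moved the same way, and their part in the values of the BMP genes was not tested. The receptor gene Bmpr1a was at least 19.0-fold lower in B cells and 14.1-fold lower in T cells, with another probe set at -1.82 on the log2 scale, and Bmpr2 was 9.02-fold and 3.74-fold lower. Smad1, a signal transducer of BMP receptors, was present in all 3 arrays at 1087, 512 and 1405. Of 10 genes listed as antigen receptor and EGR inputs to Id3, 6 were at least 4-fold higher in T than in ES cells, beside 10.8% of all genes. In B cells 5 were, beside 9.85%. Nab1 was in both counts, at 2.83 in T cells and 2.85 in B cells on the log2 scale. The list does not separate genes that raise Id3 from genes that lower it. Of 9 measured between T cells and B cells, 0 reached 4-fold, beside 2.49% higher and 1.85% lower over all genes. Of the 6, Egr3, Elk4 and Nfatc2 each had another probe set of the opposite sign for T cells against ES cells, at -0.24, -0.42 and -0.22 on the log2 scale. Egr1, an early gene that activates Id3, had signals of 2015 in ES cells, 4871 in the B cell array and 6860 in the T cell array. By its brightest probe set Egr3 read 175, 3207 and 1834, where another probe set gave -0.24 for both lymphocytes against ES cells, and the phosphatase-controlled factor gene Nfatc1 read 47.7, 4081 and 3335, with its probe sets between 1.35 and 5.13 on the log2 scale for T cells against ES cells. Id3 itself was not higher in either lymphocyte array than in ES cells.

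Likeness of pattern was measured as the Euclidean distance between the 3 centred log2 values of 2 genes, over 12776 genes with a signal above the detection level in at least 1 array. With 3 arrays such a distance separates few patterns. Tcf4 was nearest to Arhgap24 at a distance of 0.10, Terb1 at 0.12 and 4933426B08Rik at 0.12, and 9 genes lay within 0.25. Id2 was nearest to Lypd6b at 0.02, Il21 at 0.03 and Vipr1 at 0.04, with 16 genes within 0.25. Those 3 genes of Id2 were below the detection level in ES cells and B cells, where Id2 was not, so their distances rest on values raised to that level. The same holds for Tcf4, since Terb1 and 4933426B08Rik were below it in ES cells and T cells and Arhgap24 in T cells. Id1 was nearest to Stx3 at 0.05, Pdpn at 0.08 and Phldb2 at 0.13, with 47 genes within 0.25, and here Id1 itself and Pdpn were below the level in T cells and Phldb2 in both lymphocytes. The flatter patterns had many neighbours, 124 genes for Tcf3 (As3mt, Slc66a2 and Inka1 the nearest), 305 for Tcf12 (Prkx, Slc36a1 and Hps5) and 286 for Id3 (Fbxw7, Zfp446 and Stk35). Among the members themselves Tcf3 and Id3 were closest, at 0.81, followed by Tcf3 and Tcf4 at 1.11, and Id1 and Id2 were farthest apart, at 5.59.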

How the data were processed

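Messenger RNA of 3 mouse cell populations was measured with 1 array each. The values are linear intensity signals of probe sets as the authors deposited them, made with Affymetrix Expression Console per the submitters' processing notes. How the signals were summarised, scaled and corrected for background was not given in the sources used here. After trimming 2% at each end the column means were 497.3 (ES cells), 497.8 (B cells) and 497.7 (T cells), which equal scaling of the means would give, so a general change in mRNA content cannot be seen. Gene names came from GEO's platform annotation. Of 45037 probe sets, 34945 had 1 gene symbol, 932 several and 9160 none listed. The Entrez ID was found in RefSeq's table of GRCm38.p6 for 34741 of the 34945 and 0 symbols changed. The single-symbol probe sets stood for 18193 genes.

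Values below the 50th percentile, 95.0, were raised to it, log2 was taken, and arrays were subtracted for each probe set and for the brightest probe set of each gene. With 1 array per group there is neither a test nor a p-value, and the precision is limited by the number of arrays. The rule for named genes took all members, their 3 nearest genes by pattern, fixed genes and up to 4 genes with the greatest difference per list and comparison. Of 197 list entries 13 had no single-symbol probe set and are not analysed here. The members and lists were chosen with earlier results of these data known. The alternatives tried were scaling to the 75th percentile, quantile normalization, adding 16 without a floor, the 65th percentile as detection level, the median over probe sets, every probe set having to pass, and 2-fold. Promoter sequences came from RefSeq. Python 3.11.15, numpy 2.4.6 and pandas 2.3.3 were used, and the counting was tested on simulated data.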

Additional observations from a re-analysis of the deposited data

How the results depend on the processing

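No paired analysis was possible because each population has 1 array and the labels give no replicate numbers, and for the same reason no replicate could be left out. Of 108 values of the 6 genes under 6 alternatives, 95 moved by less than the SD between probe sets and 13 by more. That SD was 0.62, 0.60 and 0.35 on the log2 scale for T against ES, B against ES and T against B cells. Of the values past 4-fold 0 turned their sign, while 5 of the 108 changed sign or went to 0. Many values could not move, since Id1 and Id3 have 1 probe set each and the higher detection level changed only Id1. The tally is therefore no measure of error. The median over probe sets counted 2 genes in place of 1 as higher than in ES cells, Tcf12 being added, in both lymphocytes, and put the median difference of the 6 genes between B cells and ES cells at 0.93 in place of 0.27 on the log2 scale. Scaling to the 75th percentile left 0 genes at least 4-fold higher in B than in ES cells. When every probe set had to pass, 0 genes were higher in B than in ES cells, and 0 were higher and 0 lower in T than in B cells. The least extreme probe sets gave a median E protein change minus Id change of 0.92 in place of 2.31 for B cells against ES cells. For T cells against B cells they gave -0.48 in place of -1.80, both with Id1 at its bounds. By the brightest probe sets, the 6 pairs without Id1 had a median of -2.19 for T cells against B cells. That median was not computed for the least extreme probe sets. At 2-fold, 2 genes in place of 1 were lower in T than in B cells. The every-probe-set counts follow from the dimmest probe sets of Tcf4 and Id2 in T against B cells, and in B against ES cells from Tcf4, of whose 6 probe sets 3 reached 4-fold. For the others the cause was not tested. Id1 and Id3 rest on 1 probe set each, and the signal of Id1 in both lymphocyte arrays lies too near the detection level to be ordered.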

Other observations

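Older names make these genes easy to confuse with another family. Tcf7l1, a WNT pathway factor gene of ES cells for which RefSeq lists Tcf3 as a synonym, is a different gene (Entrez 21415) from the E protein gene Tcf3 (Entrez 21423). The brighter of its 2 probe sets had signals of 1295 in ES cells, 30.3 in the B cell array and 86.5 in the T cell array, at least 13.6-fold lower in both lymphocytes, and the other had 799.6, 32.3 and 117. Tcf3 itself had 1236 in ES cells and its highest value, 2390, in B cells. Tcf7l2, for which Tcf4 is listed as a synonym, had signals of 358, 147 and 418 by its brightest probe set, lowest in B cells, where the E protein gene Tcf4 was highest at 5797.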
